A study of Mus musculus with 5 samples.

Results

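The genes described here are the mouse zinc finger genes with a numbered Zfp symbol, such as Zfp612. They were taken by name alone: every gene of the deposited table whose symbol is Zfp followed by digits only, leaving out Zfp36, which encodes the mRNA decay factor tristetraprolin. The rule found 160 of the 11194 genes in the table. 11 further symbols with a letter after the number, such as Zfp36l1, were not members. The RNA had been precipitated with an antibody against Staufen1, a protein that binds double-stranded RNA, from mouse skeletal muscle stem cells, and was copied with oligo(dT) priming from 100 pg per library before paired-end sequencing of 101 bases. 3 libraries came from wild type mice (Stau+/+) and 2 from Staufen knockout mice (Stau-/-), and all 5 are immunoprecipitates. The comparison asks which transcripts are recovered with Staufen1, with the knockout precipitate as background. The labels used here give neither the age of the mice nor the kind of knockout allele, and do not say whether each library stands for a separate animal. P-values therefore measure the spread between these libraries, which may be technical.

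Most numbered Zfp genes encode proteins with arrays of Cys2-His2 zinc fingers, each finger a small fold held by a zinc ion, and many of these arrays read DNA. A large subfamily carries a Kruppel-associated box (KRAB), which recruits the corepressor Trim28 and through it the histone methyltransferase Setdb1 and heterochromatin proteins, and is known for silencing retroelements and imprinted loci. Others act outside this pathway, as activators, as ubiquitin ligases, or as binders of RNA and ribosomes. The symbol is only a number in the naming order and says nothing about which of these a gene does.

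Library totals over the genes of the table ran from 33846391 to 105473455 counts in wild type. Knockout 1 and 2 were both shallower than that range, at 9370244 and 3091302 counts. The level of Stau1 itself, in CPM (the count scaled to a common library size), was 104.3 to 126.8 in wild type and 109.0 and 110.7 in knockout. Its log2 fold change was 0.08 (95% interval -0.32 to 0.49), and both knockout libraries lay within the wild type range. Stau1 RNA was thus not clearly lower in the libraries labelled knockout, with means of 116.4 CPM in wild type and 109.9 CPM in knockout. A fall in knockout of up to 0.49 in log2 lay inside the interval, and a larger one outside it. Each direction below rests on the labels: knockout means the libraries so labelled. The 11 markers of muscle stem cells were all present, and their summed level was 4925 to 5574 CPM in wild type and 3123 to 3196 CPM in knockout. The 12 endothelial markers summed to 1448 to 1954 CPM in wild type and 3093 to 3386 CPM in knockout. Of these, 3 stem cell markers were called higher in wild type and 6 endothelial markers higher in knockout. Of the 8 markers of fibro-adipogenic cells 2 were called higher in wild type and 1 in knockout (1993 to 2877 against 1434 to 1499 CPM in sum), and of the 4 measured markers of red blood cells 3 were called higher in knockout (216 to 295 against 471 and 805 CPM). None of the 6 muscle fibre or 7 macrophage markers in the table was called, where 2.05% of all genes were. The fibre markers summed to 426 to 514 CPM in wild type, 340 CPM in knockout 1 and 2217 CPM in knockout 2, and the macrophage markers to 242 to 378 and 367 to 383 CPM. None of the markers found in the table was at 0 in every library. In such bulk samples fewer cells of a type and less RNA per cell cannot be told apart, and no input library was used here, so how much of a transcript the cells held and how well the antibody recovered it cannot be told apart.

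The Zfp genes were mostly low in these precipitates. Together they took 0.373%, 0.404% and 0.383% of the counts in wild type 1 to 3, and 0.385% and 0.415% in knockout 1 and 2. The knockout shares thus lay within or just above the range of the wild type shares. Per kilobase of exon the median member had 3.08 CPM (mean of both group means), against 6.94 CPM per kb for all genes tested, and 37 of the 160 lay above that all-gene median. The low level was not particular to them, since the 38 numbered Zbtb, Zkscan and Zscan genes had a median of 2.78 CPM per kb. Levels ran from 0.367 CPM per kb for Zfp26 to 50.1 CPM per kb for Zfp131. No gene with fewer than 3.02 CPM in its third-highest library was in the deposited table, so more weakly recovered Zfp genes were not analysed here. This floor is uneven between the genotypes. A gene above it only in the 3 wild type libraries could be in the table, and one above it only in the 2 knockout libraries could not. Counts of genes higher in each genotype are therefore not on an equal footing.

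**Figure D1:**
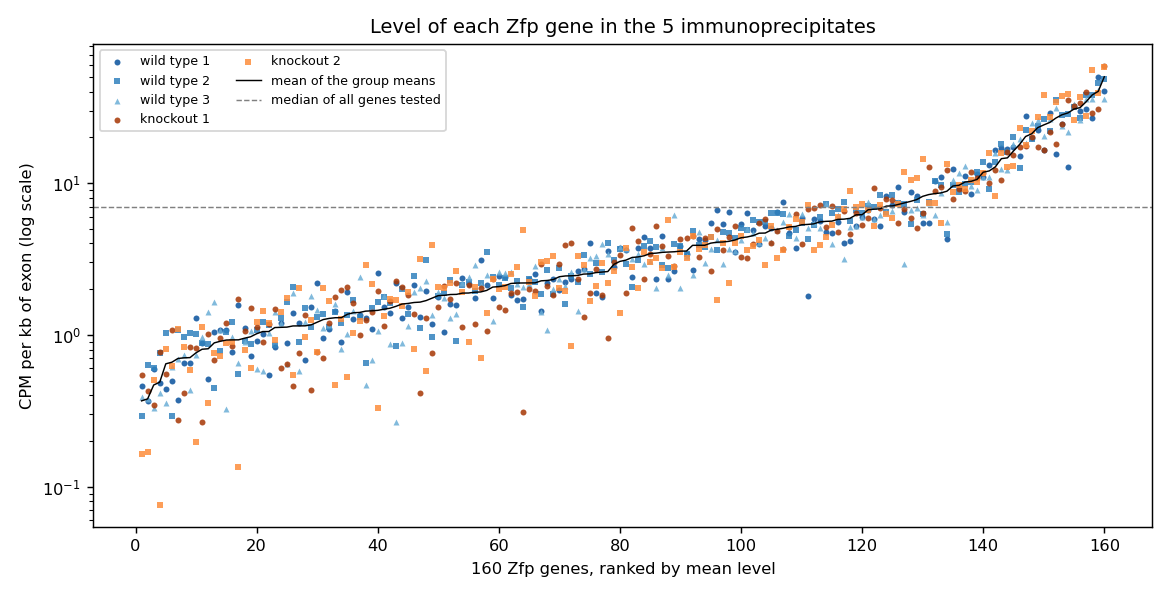
The level of each of the 160 Zfp genes in CPM per kb of exon, on a log scale, with genes ranked by their mean level and 1 point per library (blues, wild type 1 to 3; oranges, knockout 1 and 2). The dashed line is the median of all genes tested, 6.94 CPM per kb, and 37 Zfp genes have a mean above it.

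Zfp131, which encodes a zinc finger protein with a BTB domain, headed the order of levels with 41.6 ± 6.41 (SD, n = 3) CPM per kb in wild type and 58.7 ± 0.552 CPM per kb (SD, n = 2) in knockout. Zfp771 followed with 45.4 ± 4.39 and 35.0 ± 5.69 CPM per kb, and Zfp511 with 33.7 ± 5.98 and 42.4 ± 19.0 CPM per kb. Zfp948 had 34.9 ± 3.74 and 33.8 ± 8.63 CPM per kb. Below these came Zfp330, Zfp622, Zfp692 and Zfp598, with means from 31.4 down to 28.2 CPM per kb. Zfp511 and Zfp948, neighbours in this order, differed by less than their spread in both groups. Zfp622, a factor of large ribosomal subunit maturation, was even across libraries, with 90.8, 88.4 and 93.3 CPM in wild type and 90.2 and 72.5 CPM in knockout. Zfp236, singled out after its values were seen, had the highest CPM of the members before division by its 10471 bases of exon, and it was uneven within both groups: 161.7, 370.4 and 324.6 CPM in wild type and 190.4 and 360.4 CPM in knockout. At the low end, Zfp26, Zfp407, Zfp334 and Zfp60 had means of 0.367 to 0.488 CPM per kb, and in knockout 2 they rested on 5, 8, 13 and 2 counts.

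The shape of the gene models was another common trait. The members had a median of 6 exons, merged over isoforms, against 10 for all genes tested, and a median exon length of 4464 bases in sum against 3805. The 38 Zbtb, Zkscan and Zscan genes also had a median of 6 exons, with 5408 bases. The longest exon made up a median of 60.0% of that length, against 44.7% for all genes, and was the last exon on the gene's strand in 120 of 160 members (75%, against 70.3% of all genes). In genes of this family the finger array is usually coded by a single long exon near the 3' end. These are properties of the annotation, not of the libraries, and paralogs with similar finger arrays can share reads, so that counts of close relatives may be partly exchanged.

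As a set, the Zfp genes were centred near 0 between the genotypes. The median log2 fold change of wild type over knockout was 0.04, with the middle 50% of members between -0.32 and 0.37. For all 11194 genes it was 0.003, with a middle range of -0.33 to 0.33. Each library was made from 100 pg of RNA, and counts were scaled to a common library size. A recovery with Staufen1 shared by most transcripts would therefore not show here. These values place the Zfp genes relative to the other genes only. 87 members were higher and 73 lower in wild type by sign alone. 1 member was called higher in knockout and 0 in wild type by edgeR's quasi-likelihood test at an adjusted p under 0.05, where 1.00% and 1.05% of all genes were called in those directions. Beside the 0, 7 members were higher in wild type at an unadjusted p under 0.05, and DESeq2 called 2. DESeq2 called more genes throughout, 890 of all 11194 against 230 by edgeR, and 2 members in each direction. In all, 13 members had an unadjusted p under 0.05, 7 higher in wild type and 6 in knockout, which is 8.13% of members, where 20.4% of all genes did (10.4% and 9.99% in the 2 directions). The gap varied with the libraries used. Without wild type 1 the shares were 8.75% of members and 14.3% of all genes. They were 7.5% and 20.8% without wild type 2, and 6.25% and 14.6% without wild type 3. The libraries did not overlap between groups for 28 members with wild type above (17.5%, against 20.4% of all genes) and 19 with knockout above (11.9%, against 18.1%). 7 members, or 4.38%, differed by more than 2-fold, where 8.47% of all genes did.

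The members' estimates were wider than those of all genes. Their median count was 1330.5, 444 and 926.5 in wild type 1 to 3 but 119 and 40.5 in knockout 1 and 2, where 1 and 16 members had fewer than 10 counts and none was at 0. The median standard error of the log2 fold change was 0.37 for members and 0.29 for all genes. Among the 80 members with the higher mean CPM the median standard error was 0.28, and 7 of them (8.75%) had an unadjusted p under 0.05. Of these 7, 2 were higher in wild type and 5 in knockout. Among the other 80 the median standard error was 0.51, with 6 (7.50%) under 0.05, 5 higher in wild type and 1 in knockout. The 95% interval of the log2 fold change lay within 2-fold in both directions for 59 members (36.9%, against 48.8% of all genes), so for the other 101 a 2-fold difference in at least 1 direction was not outside the interval. The members' median absolute difference between 2 libraries was 0.26 to 0.29 (log2 of CPM + 1) within wild type, 0.43 between the knockout libraries and 0.33 to 0.50 across the groups. The difference between knockout 1 and 2 was thus within the range of the differences across genotype.

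**Figure D2:**
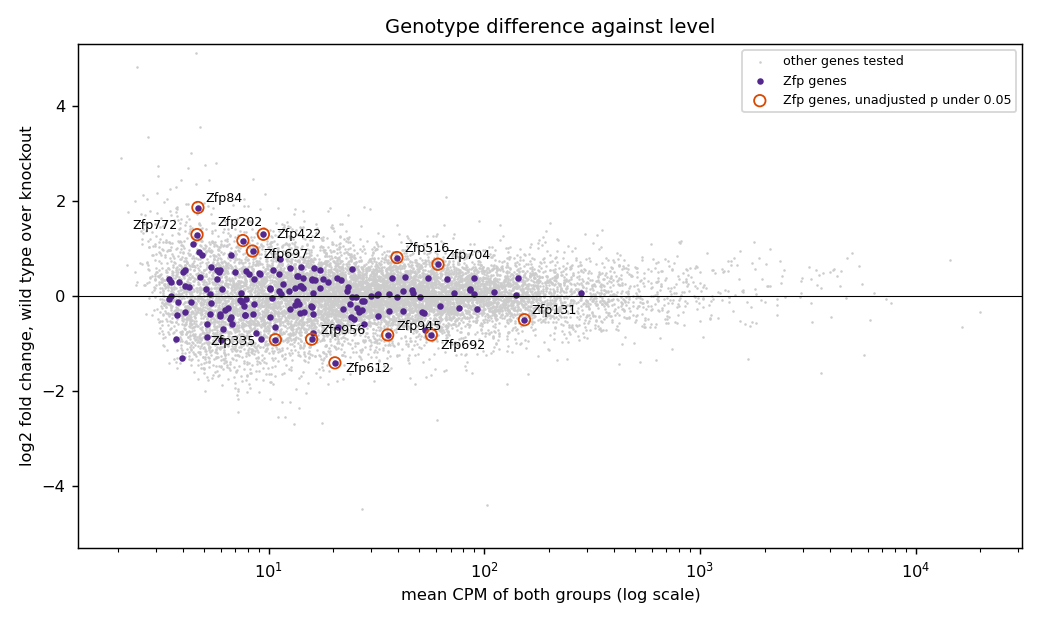
The log2 fold change of wild type over knockout against the mean CPM of both groups (log scale), for the 160 Zfp genes (purple) and all other genes tested (grey). Rings and names mark the 13 Zfp genes with an unadjusted p under 0.05, of which Zfp612 was the one called by edgeR at an adjusted p under 0.05.

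Zfp612 was the member called by edgeR, and it was higher in the libraries labelled knockout. The gene lies on chromosome 8, 110079764 to 110090181, plus strand (mm10), in 5 exons of 2301 bases that overlap no other RefSeq gene. It had 9.90, 10.7 and 12.8 CPM in wild type 1 to 3 and 28.2 and 30.9 CPM in knockout 1 and 2, from 1023, 351, 908, 269 and 97 counts. Both knockout libraries lay above all wild type libraries, and the libraries of a group lay close together. The means were 11.1 ± 1.5 CPM (SD, n = 3) and 29.5 ± 1.90 CPM (SD, n = 2), 2.65-fold higher in knockout. The log2 fold change was -1.40 (SE 0.29, 95% interval -2.03 to -0.78, adjusted p = 0.0281, edgeR quasi-likelihood test). The call was lost without any 1 of the 5 libraries, with adjusted p of 0.102, 0.0520 and 0.0753 without wild type 1, 2 and 3 and 0.0512 and 0.0671 without knockout 1 and 2 in the same test, and the log2 fold change then ran from -1.53 to -1.33. The endothelial and red blood cell markers above were also higher in both knockout libraries, and their part in this difference was not tested.

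5 further members were higher in knockout at an unadjusted p under 0.05 without passing the adjusted threshold in the edgeR test. Zfp945 had 23.6, 28.0 and 25.3 CPM in wild type against 33.6 and 57.9 CPM in knockout, with a log2 fold change of -0.82 (SE 0.27, adjusted p = 0.107, edgeR). The groups were separate, but knockout 2 was well above knockout 1, and DESeq2 called this gene. Zfp692, also named AICAR response element binding protein, had 25.1, 55.8 and 42.6 CPM against 69.4 and 75.7 CPM, with a 2.23-fold range within wild type. Zfp131 had 124.6, 148.5 and 109.5 CPM against 181.2 and 178.8 CPM, a 1.41-fold difference and the smallest of the 6. Zfp335, a subunit of histone H3K4 methyltransferase complexes, had 6.81, 8.79 and 6.75 CPM against 13.8 and 14.3 CPM. Its exons overlap those of Pcif1 and an antisense RNA, and Zfp131 overlaps noncoding genes, so reads may be shared where strand was not used. Zfp956 had 5.38, 12.7 and 15.0 CPM against 20.0 and 21.3 CPM, and it shares exon sequence with its neighbour Zfp783, so these counts are uncertain. For these 4, the adjusted p ran from 0.128 to 0.226 in the edgeR test.

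7 members were higher in wild type at an unadjusted p under 0.05, and none of them passed the adjusted threshold in the edgeR test, while DESeq2 called Zfp84 and Zfp516. Zfp84 had the largest difference of all members, with 5.76, 8.55 and 7.76 CPM in wild type against 1.89 and 2.23 CPM in knockout. That is 3.58-fold (log2 fold change 1.86, SE 0.54, adjusted p = 0.0818, edgeR), and the knockout values rest on 18 and 7 counts. Both knockout values lay under 3.02 CPM, so Zfp84 was in the deposited table only through its wild type libraries. A gene with such levels in the other direction could not be in it. Zfp516, a transcription factor of the brown fat programme, was better measured, with 58.5, 48.6 and 43.4 CPM against 28.9 and 28.3 CPM. All 3 wild type libraries lay above both knockout libraries, by 1.75-fold in the means (log2 fold change 0.81, SE 0.24, adjusted p = 0.0839, edgeR). Zfp704 had 88.1, 67.9 and 68.5 CPM against 44.3 and 50.3 CPM, a 1.58-fold difference. Zfp422 had 12.9, 14.5 and 12.3 CPM against 3.46 and 7.95 CPM, with the knockout libraries 33 and 25 counts deep. The other three were Zfp202, a repressor linked to lipid genes in human, Zfp772, and Zfp697, known from muscle regeneration. Their means were 10.5, 6.74 and 11.2 CPM in wild type and 4.75, 2.58 and 5.63 CPM in knockout, and in knockout 2 they rested on 17, 5 and 13 counts.

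**Figure D3:**
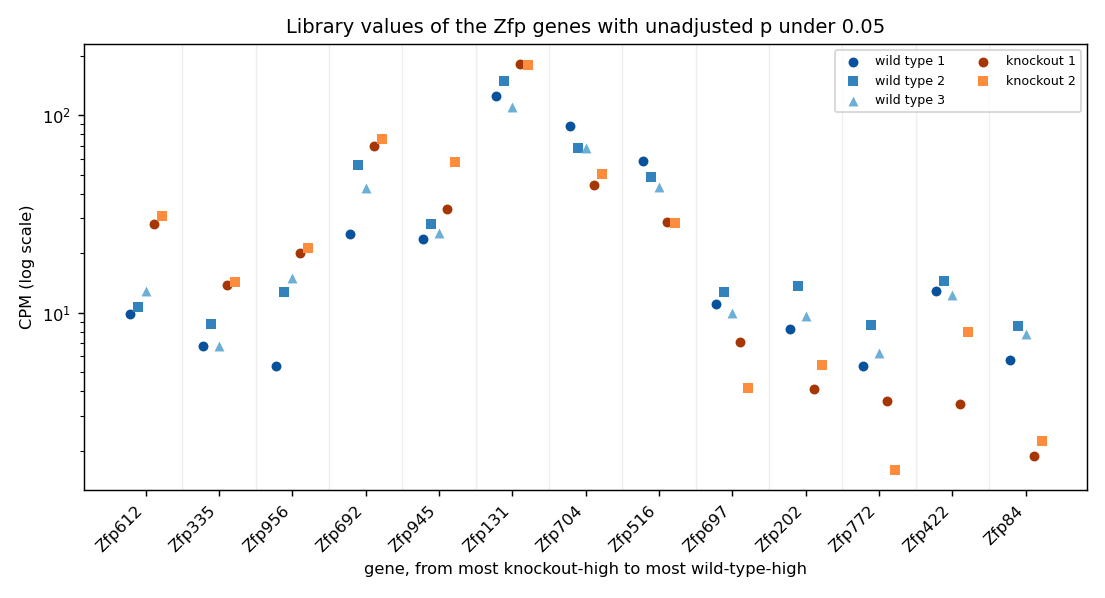
CPM (log scale) in each library for the 13 Zfp genes with an unadjusted p under 0.05, ordered from the most negative to the most positive log2 fold change. The groups do not overlap for any of the 13, and the test that chose these genes favours such separation.

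Members were also grouped by what their proteins are known to do, in 5 lists that together hold 46 of the 160. None of the 46 was called by edgeR, where 2.05% of all genes were. Among them 4 had an unadjusted p under 0.05, where 20.4% of all genes did. DESeq2 called 1 of the 46, Zfp516, where it called 890 of all 11194 genes. Of 11 factors of RNA and ribosomes, 1 had an unadjusted p under 0.05 (Zfp697), 6 had a positive log2 fold change and the median was 0.02. Zfp346, which binds double-stranded RNA as Staufen1 does, had 11.3, 14.0 and 11.3 CPM in wild type and 5.45 and 12.1 CPM in knockout, so that knockout 2 lay within the wild type range. Its log2 fold change was 0.54 with a 95% interval of -0.37 to 1.45, which leaves a difference of 2-fold inside it. Zfp106, an RNA-binding protein needed for nerve and muscle, had 114.1, 101.1 and 89.8 CPM against 98.7 and 56.9 CPM. Zfp207, which acts at the mitotic spindle, was tighter at 131.1, 128.9 and 164.3 against 132.9 and 146.0 CPM, with an interval of -0.39 to 0.43. Zfp598, the ubiquitin ligase that marks collided ribosomes, had a log2 fold change of -0.28 (interval -0.74 to 0.19). Zfp326, a splicing factor of the DBIRD complex, had 46.3, 52.4 and 21.2 CPM against 48.6 and 84.9 CPM, so its groups overlapped.

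Of 17 promoter-binding activators and repressors, 2 (11.8%) had an unadjusted p under 0.05, where 20.4% of all genes did. These were Zfp131 and Zfp335, both higher in knockout, as were 9.99% of all genes at that p. A positive log2 fold change was seen for 7 of the 17 (41.2%, against 50.3% of all genes), and the median was -0.10. Zfp143, an activator of many housekeeping promoters, was even in wild type (6.97, 7.39 and 7.85 CPM) but 12.1 and 2.55 CPM in the knockout libraries, the latter from 8 counts. Zfp281 had a log2 fold change of 0.06 and Zfp410, an activator of the NuRD subunit gene Chd4, one of 0.03, with intervals of -0.41 to 0.53 and -0.49 to 0.55.

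Of 11 differentiation regulators, 9 had a positive log2 fold change (81.8%, against 54.4% of all members) and the median was 0.36, beside 0.04 for all members. The 2 negative ones were Zfp467 at -0.69 and Zfp637 at -0.22. This list, like the others, was drawn up with earlier results of these data known. Apart from Zfp516, no gene of this list had an unadjusted p under 0.05, where 20.4% of all genes did. In 5 of the 11 all wild type libraries lay above both knockout libraries, where 20.4% of all genes did. These were Zfp516, Zfp318, Zfp521, Zfp536 and Zfp703. Zfp703 had 91.4, 73.7 and 60.3 CPM against 58.2 and 59.2 CPM, so wild type 3 was close to the knockout values. Zfp536, a repressor of neuronal differentiation, had 40.7, 47.2 and 39.3 CPM against 33.2 and 32.1 CPM. Zfp521, a regulator of mesenchymal and blood lineages, had 15.6, 13.6 and 17.4 CPM against 11.9 and 11.1 CPM. Zfp423, the preadipocyte factor related to Zfp521, had a log2 fold change of 0.04 (interval -0.99 to 1.07). Markers of muscle stem cells and of fibro-adipogenic cells had higher sums in wild type too, and their part in these values was not tested.

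Among 5 KRAB genes known to act on imprinted genes, retroelements or single targets, 0 had an unadjusted p under 0.05. Of all genes, 20.4% did. The median log2 fold change of the 5 was -0.20. Zfp568, which silences a placental promoter of Igf2, had close means in both groups, 50.5 ± 7.31 CPM (SD, n = 3) and 50.8 ± 8.34 CPM (SD, n = 2), with a log2 fold change of -0.02 (interval -0.50 to 0.47). Zfp809, a silencer of proviruses, had 5.51, 7.42 and 6.85 CPM against 6.07 and 11.8 CPM, and its interval of -1.39 to 0.59 is wide. The pair of known partners of H3K9 methyltransferases went opposite ways without passing the test. Zfp644 had 151.0, 176.6 and 158.0 CPM against 135.5 and 113.3 CPM (log2 fold change 0.38, interval -0.03 to 0.78), and Zfp462 had 15.0, 17.4 and 9.27 CPM against 17.8 and 18.5 CPM (-0.38, interval -1.13 to 0.36).

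**Figure D4:**
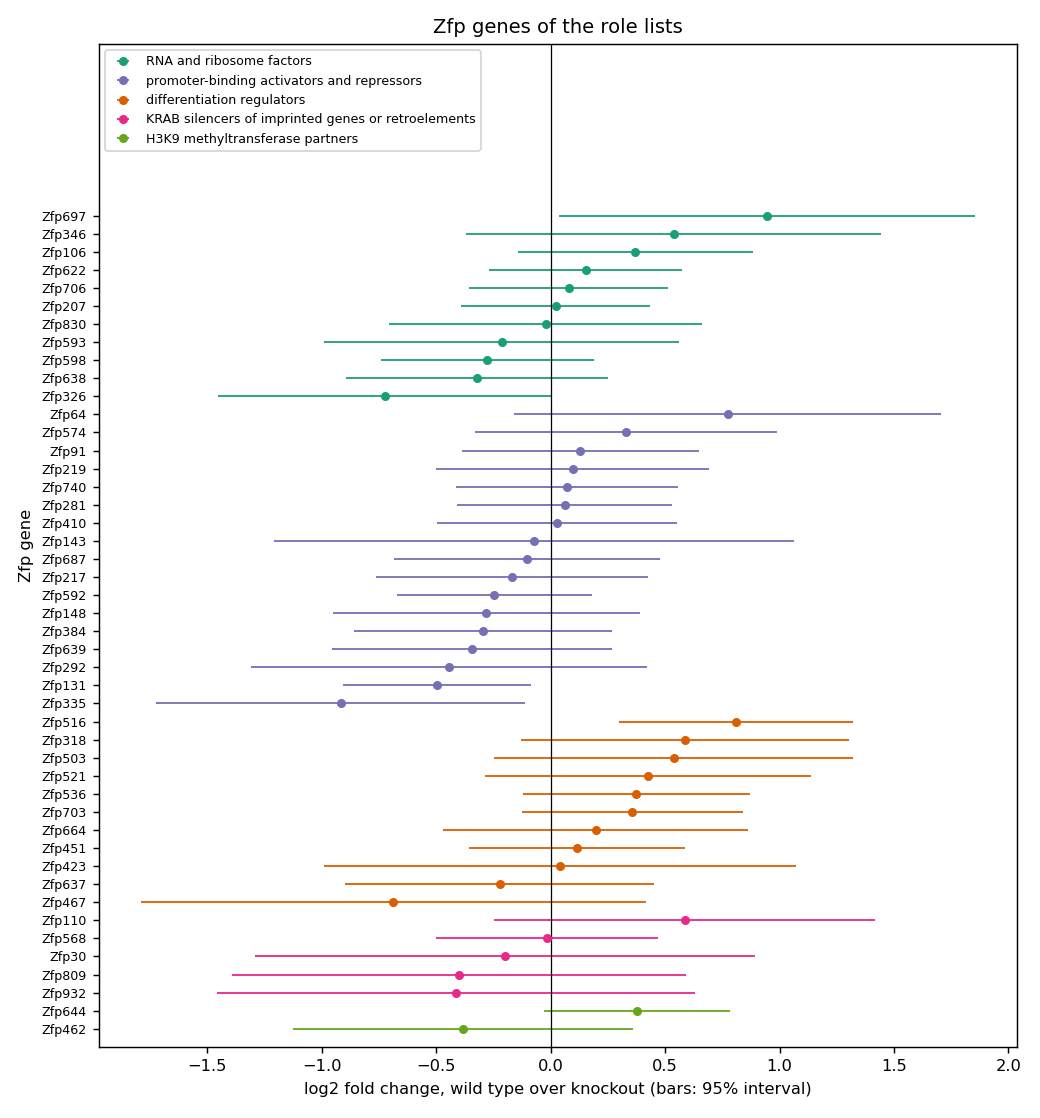
The log2 fold change of wild type over knockout for the 46 Zfp genes of the 5 role lists, with 95% intervals from the edgeR fit as bars. Most intervals include 0, and those of Zfp697, Zfp131, Zfp335 and Zfp516 do not before adjustment.

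The corepressor machinery that KRAB proteins recruit was read from the same fit. Of 39 genes of KRAB corepressor, NuRD, H3K9 methylation, DNA methylation and SUMO factors in the table, 0 were called in either direction by edgeR, beside 2.05% of all genes, a share under which less than 1 of 39 would be called. 5 (12.8%, against 20.4% of all genes) had an unadjusted p under 0.05, 4 of them higher in wild type and 1 in knockout. DESeq2 called 1 of the 39, where it called 890 of all 11194 genes. The median log2 fold change was -0.001. Trim28 had 191.8, 254.0 and 232.0 CPM in wild type and 273.6 and 239.2 CPM in knockout, with a log2 fold change of -0.18 (interval -0.59 to 0.22). Setdb1 had 14.1, 23.8 and 27.4 CPM against 11.3 and 37.2 CPM, so the knockout libraries lay on either side of wild type. Mbd3, the methyl-binding-domain subunit of NuRD, came nearest to the threshold, with 155.3, 139.4 and 145.4 CPM against 86.6 and 88.8 CPM, a 1.67-fold difference (log2 fold change 0.74, SE 0.19, adjusted p = 0.0544, edgeR). Dnmt1, the maintenance DNA methyltransferase, had 21.6, 33.2 and 23.7 CPM against 67.3 and 28.6 CPM, and knockout 2 lay within the wild type range. Sumo2 had 53.3, 37.8 and 49.8 CPM against 30.9 and 28.3 CPM (adjusted p = 0.152, edgeR).

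Zfp genes often stand in clusters that arose by tandem duplication. 42 of the 160 lay on chromosome 7, where they made up 5.00% of the genes in the table, and 16 lay on chromosome 6. With neighbours under 500 kb apart joined, 87 members stood alone, 28 were in pairs and 45 fell into 9 clusters of 3 or more. The median log2 fold change was 0.15 for these 45 and 0.04 for the other 115. An unadjusted p under 0.05 was seen for 2 and 11 of them (4.44% and 9.57%, against 20.4% of all genes). The largest cluster, on chromosome 6 between 47835661 and 48623227 (mm10), holds 9 members: Zfp398, Zfp282, Zfp212, Zfp783, Zfp956, Zfp777, Zfp746, Zfp467 and Zfp775. 7 of the 9 had a positive log2 fold change, where 54.4% of all members and 50.3% of all genes did. These 7 ran from 0.33 for Zfp212 to 0.93 for Zfp775, and their 95% intervals all included 0. The exceptions were Zfp956 and Zfp467, at -0.91 and -0.69. In a cluster of 8 on chromosome 7 (127233061 to 127885996), 5 had a positive log2 fold change and 0 an unadjusted p under 0.05, with values from -0.86 to 0.86. In a cluster of 7 on chromosome 7 (29768552 to 30107622), 2 had a positive log2 fold change. It holds Zfp84, the member with the largest difference, and the values ran from -0.89 for Zfp74 (95% interval -2.08 to 0.29) to 1.86 for Zfp84.

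Single libraries set the values of some weakly recovered members. 26 members (16.3%, against 12.0% of all genes) had a range of more than 2-fold among the 3 wild type libraries. Zfp553, singled out for the widest range, had 7.38, 2.83 and 0.902 CPM in wild type 1 to 3, from 763, 93 and 64 counts, and 7.65 and 5.73 CPM in knockout. Wild type 1 lay near the knockout values and the other wild type libraries below them, so the group means of 3.70 ± 3.33 (SD, n = 3) and 6.69 ± 1.36 CPM (SD, n = 2) do not describe separate groups. Zfp719, chosen likewise, had 7.41, 2.62 and 3.09 CPM in wild type and 8.06 and 0.636 CPM in knockout, the last from 2 counts. Across members, log2 values (CPM + 1) correlated at 0.932 to 0.945 between wild type libraries, 0.845 between the knockout libraries and 0.855 to 0.911 between groups, as a description across genes that share each library's depth.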

How the data were processed

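The authors deposited a table of unnormalized counts for 5 libraries, with exon coordinates and a summed exon length for each gene. The submitters' processing notes name edgeR, STAR, Trim Galore and Subread's featureCounts, and the mm10 build; which versions, gene annotation and strand setting were used is not given in the sources used here. Counts were analysed in R 4.3.3 with edgeR 4.0.16 (filterByExpr, which removed 0 genes, TMM, glmQLFit, two-sided quasi-likelihood F-test, 14 degrees of freedom, Benjamini-Hochberg over all 11194 genes, threshold 0.05), and the script was tested on simulated data. CPM uses TMM-scaled library sizes, and group values are mean ± SD. DESeq2 1.42.0 and limma 3.58.1 were alternatives. All 160 members passed the filter, and 143 had at least 10 counts in every library. All 160 matched the RefSeq gene table (GRCm38.p6) by identifier, and exons of 43 overlapped another RefSeq gene.

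Members, role lists, partner list, markers and the rule for named genes (members of smallest p, largest change, highest and lowest level, role lists, largest cluster) were chosen with earlier results of these data known. The chi-square per degree of freedom between replicates was 17.7 to 258.5, far above sampling noise. Counting error alone at the members' median count was 2.74% in wild type 1 and 15.7% in knockout 2.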

Additional observations from a re-analysis of the deposited data

How the results depend on the processing

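The count of members called higher in wild type (0) became 2 with DESeq2 (Zfp84 and Zfp516) and 1 with the replicate number as a block (Zfp516). The count higher in knockout (1) became 2 with DESeq2 (Zfp612 and Zfp945) and 2 with the block (Zfp612 and Zfp692). With limma-voom that count became 0, and the adjusted p of Zfp612 was 0.136. Of all 11194 genes, DESeq2 called 890, the block 612 and limma-voom 22, against 230 in the main fit. With 1 library left out at a time, 0 members were called higher in wild type and 0 to 1 higher in knockout, the 1 being Zfp945 without knockout 1; 10 to 26 members then had an unadjusted p under 0.05, the 26 without knockout 1 (16.3%, against 21.1% of all genes). Leaving out filterByExpr gave the same fit, since it removed 0 genes, and is not counted here. Zfp612 was called in 7 of the other 13 alternatives, with adjusted p from 0.000455 to 0.136 and a log2 fold change from -1.53 to -1.33. Partner genes called higher in wild type (0) became 1, Mbd3, with DESeq2, with at least 10 counts in every library, with the block and after thinning each library to 3091302 counts; with a library left out they were 0 to 1 in each direction, Dnmt1 being higher in knockout and Uhrf1 in wild type without knockout 2. The median log2 fold change of members was -0.002 with total counts, -0.01 after thinning and 0.10 with the replicate block. It was 0.01 to 0.05 with a library left out. Each lay within 0.07 of the main value of 0.04. That 0.07 is the SD of the members' mean level between wild type libraries. It gives a scale only and is not the spread of a difference between groups. Of 993 values of single named genes under these 13, 976 kept their side of the threshold; 58 values of genes that were called in neither fit changed sign. The causes were not tested. Libraries with the same replicate number had deviations from their group means that correlated at 0.05 and 0.04. With 2 knockout libraries these deviations mirror each other, so the values cannot tell whether the numbers pair the libraries. The main fit used no pairing. Depth was lowest in the knockout libraries, with a median of 119 and 40.5 counts per member.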
